A study of Mus musculus with 15 samples.

Results

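Chromosome 14 of the mouse was examined in RNA-sequencing data of 15 T cell leukemia lines, through the 342 of its 435 listed genes that had a mean of at least 5 CPM (the read count of a gene scaled to the total of the line). The whole table lists 12545 genes. The lines SKO132, SKO137.1 and DKO548 were selected on the expression of these same genes in these same libraries, so their shifts are given as a description, with no test. The value compared is log2(CPM + 1) of a gene in a line minus the median of that gene over the 15 lines. The shift of a line is the median of these differences over the 342 genes, less the same median over 9032 genes of the other autosomes. Genes near the threshold were Gjb2 with a mean of 5.11 CPM and Kbtbd6 with 5.18 CPM inside it, and 4930452B06Rik with 4.98 CPM and ENSMUSG00000085092 with 4.75 CPM outside it.

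The lines were established from thymic cells of moribund FVB/NJ mice, each grown for weeks in OPTI-MEM medium with serum. All 15 lines lack E2a (Tcf3), which encodes the E protein transcription factors E12 and E47. In 7 lines (SKO) the genotype was E2a-/- alone, and in 8 lines (DKO) it was E2a-/-LefF/F LckCre+, with floxed Lef1 deleted by a Cre that acts from the DN2 stage of T cell development. Each line has 1 library, so a line is taken as the unit of replication and the within-line error was not measured. The labels do not say whether each line came from a separate leukemia.

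Leukemias of thymic origin often gain or lose whole chromosomes. A chromosome present in an extra copy usually raises the RNA of most genes on it in proportion to the DNA dose, while single genes can depart widely from that dose through their own regulation. Mouse chromosome 14 carries the T cell receptor alpha and delta locus, together with genes for chromatin factors, the proteasome and tumour suppressors such as Rb1 and Bap1.

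Lef1, the deleted gene, was listed at 668 to 1558 CPM in 6 of the 7 E2a-/- lines and at 103 to 210 CPM in the 8 DKO lines. The library labelled SKO132 had 59.0 CPM and therefore went against its label. SKO156.6 and SKO186.5 were more alike than any other pair, with a Spearman correlation of 0.987 across genes against 0.969 for the next pair. Whether this pair shares an origin was not tested. All 11 T-lineage markers were listed, and their summed level was 3974 CPM in SKO132, the lowest of the 15 lines, and 9864 CPM in the highest. No B-lineage marker of 4 was listed, and 2 of 4 myeloid markers summed to 5.48 to 13.985 CPM. Of 6 epithelial and stromal markers 3 were listed (Epcam, Col1a2 and Pdgfra), while Krt5, Krt8 and Col1a1 were not. The 3 listed summed to 1.84 CPM in SKO95 and 949 CPM in DKO192.3, with 174, 222 and 218 CPM in SKO132, SKO137.1 and DKO548. Of 3 erythroid markers 1 was listed, at 0.058 to 41.6 CPM. The part of these cell types in the results was not tested. Reads on listed genes numbered 4847970 to 21681586 per line, and 143922 to 759274 of them fell on the 342 genes.

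The 3 lines carried more RNA from chromosome 14 than the other 12. Its 435 genes took 4.24% of the listed reads in SKO132 (95% Wilson interval 4.23% to 4.25%), 4.12% in SKO137.1 (4.11% to 4.13%) and 3.55% in DKO548 (3.54% to 3.56%). The other 12 lines lay between 2.67% and 3.06%, and these intervals cover counting error only. In bulk RNA a change in the share of cells and a change in RNA per cell cannot be told apart.

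The chromosome 14 shift was 0.50 in SKO132, 0.48 in SKO137.1 and 0.21 in DKO548 on the log2 scale. In the other 12 lines it lay between -0.08 and 0.00, with an SD of 0.028. The next lines below DKO548 were DKO79.9 and SKO95, both at 0.00, so no line fell between the 3 and the rest. Within the DKO group the shift ran from -0.08 over a median of -0.03 to the 0.21 of DKO548. Within the E2a-/- group it ran from -0.05 over a median of -0.01 to the 0.50 of SKO132, with SKO137.1 beside it.

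The size of the shift depends on the reference, because the 3 raised lines enter the median over 15 lines. Against the gene medians of the other 12 lines, the shift was 0.54 in SKO132, 0.54 in SKO137.1 and 0.31 in DKO548, or 1.45-fold, 1.46-fold and 1.24-fold. A 3:2 dose gives 0.57 on the log2(CPM + 1) scale at the levels of these genes. SKO132 reached 93.6% of that step, SKO137.1 reached 94.2% and DKO548 reached 53.2%. SKO132 lay 0.04 and SKO137.1 0.03 below the 3:2 step. The other 12 lines had an SD of 0.020 on this reference. DKO548 lay 0.27 below the 3:2 step. Its 0.31 lay beside the 0.32 of a 5:4 dose, which is a plain log2 ratio not adjusted to the log2(CPM + 1) scale. A gain in some of the cells and a smaller rise in all of them give the same bulk value, and these cannot be told apart here.

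**Figure D1:**
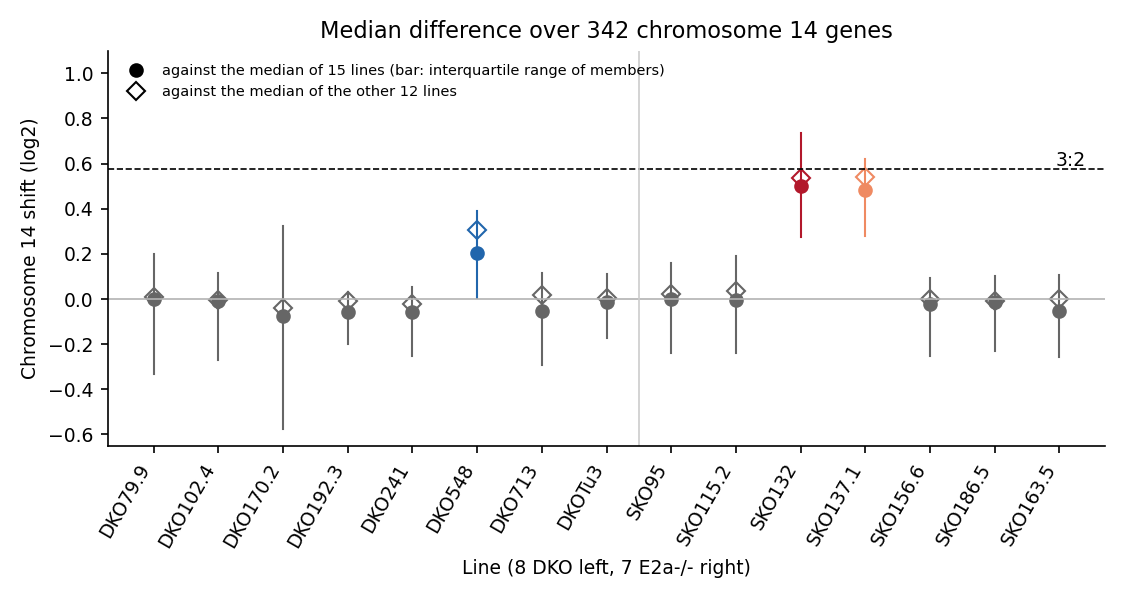
Chromosome 14 shift (log2) in each of 15 lines, 8 DKO at the left and 7 E2a-/- at the right. Filled circles are medians over 342 genes against the 15-line gene medians with bars over the interquartile range of the genes, open diamonds use the gene medians of the other 12 lines, and the dashed line marks a 3:2 dose. The open diamonds of SKO132 and SKO137.1 lie just under the dashed line, that of DKO548 about midway, and those of the other 12 lines near 0. The filled circles of SKO132, SKO137.1 and DKO548 lie lower than their diamonds.

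The rise was carried by most of the genes. In SKO132, 302 of 342 genes (88.3%) lay above their 15-line median, in SKO137.1 295 (86.3%) and in DKO548 264 (77.2%). In the other 12 lines the share lay between 32.7% and 45.0%. Against the 12-line medians, the interquartile range of the SKO137.1 genes lay between 0.34 and 0.66, and that of the SKO132 genes between 0.32 and 0.79. A rise of 1.25-fold to 1.75-fold was seen in 222 genes (64.9%) of SKO137.1, 173 (50.6%) of SKO132 and 130 (38.01%) of DKO548. At or below the reference were 36, 35 and 77 genes, respectively.

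A stricter count asks which genes lay above each of the 12 other lines. In SKO132 this held for 199 of the 342 genes (58.2%), against 14.7% of 9032 genes on the other autosomes. In SKO137.1 it held for 189 (55.3%), against 3.70%, and in DKO548 for 114 (33.3%), against 8.97%. Below each of the 12 lines were 5 genes in SKO132 (other autosomes 11.9%), 2 in SKO137.1 (2.87%) and 9 in DKO548 (11.9%). In 88 genes (25.7%) all 3 lines exceeded each of the 12, against 0.454% on the other autosomes. The lines were chosen for this rise, so nothing further is read from these counts.

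**Figure D2:**
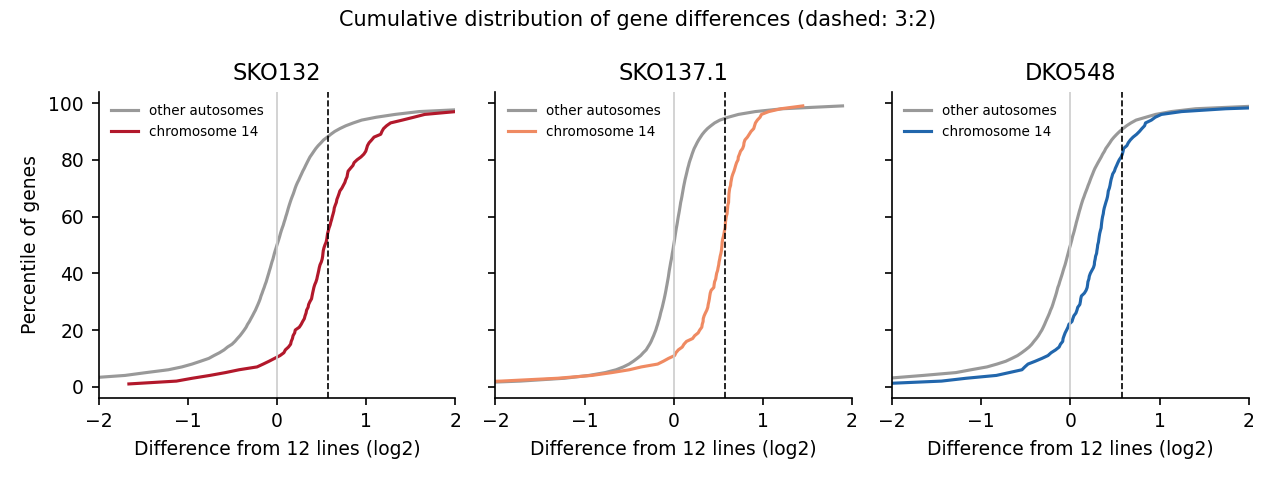
Cumulative share of genes (percentile) by difference from the gene median of the other 12 lines (log2), for chromosome 14 in colour and the other autosomes in grey, 1 panel per line. The chromosome 14 curve is displaced along most of its length, by a median of 0.54 in SKO132, 0.54 in SKO137.1 and 0.31 in DKO548, and the dashed line marks a 3:2 dose.

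Set beside the other 18 autosomes, chromosome 14 ranked first in SKO132 and SKO137.1. The other autosomes of SKO132 lay between -0.02 and 0.06, and those of SKO137.1 between -0.02 and 0.03. In DKO548 chromosome 14 had rank 3 on the 15-line reference, after chromosome 1 at 0.26 and chromosome 6 at 0.23, and the lowest was chromosome 7 at -0.14. Against the 12-line medians, chromosomes 1, 14 and 6 of DKO548 lay at 0.31, 0.31 and 0.26. Chromosomes 19 and 11 followed, at 0.15 and 0.14. The chromosome 14 value of DKO548 therefore stood among a spread of autosomal values wider than that of the other 2 lines. All these values are relative to medians over lines, so a gain shared by most lines would not show. Chromosome 15 lay at 0.03 in SKO132, 0.02 in SKO137.1 and -0.08 in DKO548 against the 12-line medians. The paper reports trisomy of this chromosome in primary DKO leukemias, and as a feature of the other genotype too. Whether the lines here carry it was not tested.

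**Figure D3:**
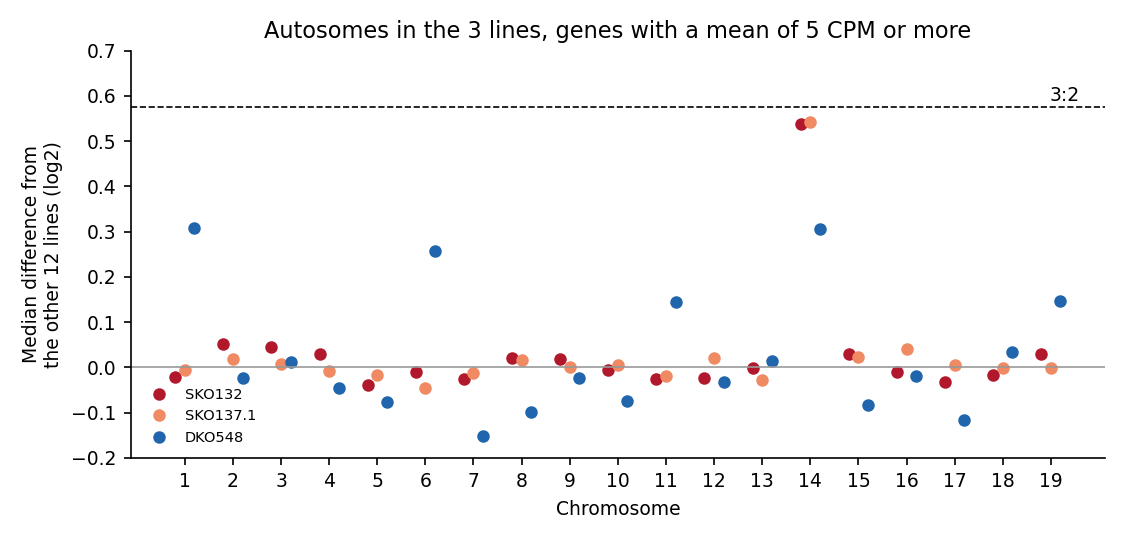
Median difference (log2) from the other 12 lines for genes of each of 19 autosomes in SKO132, SKO137.1 and DKO548. Chromosome 14 stands alone near the dashed 3:2 line in SKO132 and SKO137.1, while in DKO548 chromosomes 1, 6 and 14 lie together between 0.26 and 0.31. A gain shared by most lines would not show on this reference.

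Whether the whole chromosome or a part was raised was read from bins of 10 Mb along the positions that the table lists. The last member along the chromosome was Tmtc4, at position 123318193. Of 13 bins, 11 held at least 5 genes (6 to 81 genes, 335 in all), and the bins from 80 to 100 Mb held the other 7. In SKO132 the bin medians lay between 0.40 and 0.63, and 11 of 11 exceeded each of the 12 other lines. In SKO137.1 they lay between 0.27 and 0.54, and again 11 of 11 exceeded the 12 lines. In DKO548 they lay between -0.06 and 0.37, and 9 of 11 exceeded the 12 lines. The SD over bins was 0.067, 0.084 and 0.13 in the 3 lines and 0.044 to 0.20 in the other 12. With a minimum mean of 1 CPM the counts were 11, 9 and 8 of 11, and with 20 CPM they were 10, 9 and 8 of 10.

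The bins of DKO548 that did not exceed the other lines were the first and second from the centromeric end, at -0.06 (8 genes) and 0.00 (13 genes). SKO137.1 had 0.37 and 0.27 there, the latter its lowest bin, while SKO132 had 0.50 and 0.57. Over all 21 genes of the first 20 Mb, the shift was 0.00 in DKO548, 0.29 in SKO137.1 and 0.57 in SKO132. Over the 321 genes from 20 Mb on it was 0.21, 0.49 and 0.50. The difference between these stretches was 0.21 in DKO548 and 0.20 in SKO137.1. In the other 12 lines it ranged from -0.32 in DKO170.2 to 0.16 in SKO186.5. The split at 20 Mb lies where the bins of DKO548 change level, so nothing is read from the order of the lines. At the best single position of each line, described below, the level rose by 0.30 in SKO95 and by 0.25 in SKO186.5. Against the 12-line medians, DKO548 had 0.02 in the first 20 Mb and 0.31 beyond it. The difference was then 0.29 in DKO548 and 0.19 in SKO137.1, against -0.29 to 0.17 in the 12 lines.

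**Figure D4:**
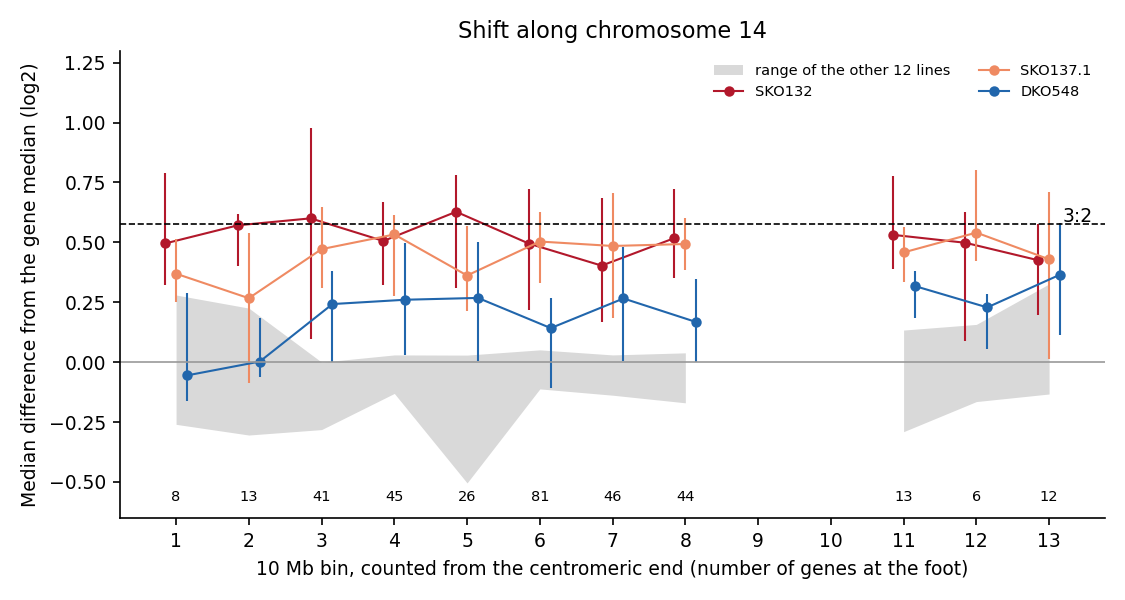
Median difference (log2) from the 15-line gene medians in 10 Mb bins counted from the centromeric end, with bars over the interquartile range of the genes, the number of genes at the foot and the range of the other 12 lines in grey. SKO132 and SKO137.1 lie above the grey band in 11 of 11 bins, and DKO548 enters it in the first 2 bins. The dashed line marks a 3:2 dose.

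The single position that best divided the genes of a line into a lower and a higher stretch, with at least 10 genes on each side, was also searched for. In DKO548 and in SKO137.1 it fell at the same place, after 23 genes, between Kcnk5, a potassium channel gene (start 20959280), and Nudt13, a mitochondrial Nudix hydrolase gene (start 21113912). The level rose there by 0.21 and 0.20. Lines without a shift of the chromosome also had their best position close by. In DKO170.2 it lay between Mrps16 and Anxa7 (start 21274483), with a change of -0.37. In DKOTu3 it lay between Camk2g and Vcl (start 21748655), with a change of 0.09. All lines share the same gene medians, so nothing is read from the shared position. The division of DKO548 removed 0.92% of the total deviation and that of SKO137.1 removed 1.05%. In the other 12 lines it removed 0.33% to 1.42%, with steps of 0.07 to 0.37 in size. In SKO132 the best position lay elsewhere, between Pck2 and Dcaf11, with a fall from 0.54 to 0.45. By this measure no step along chromosome 14 stood apart from those of the other 12 lines. In 3 consecutive groups of 114 genes each along the chromosome, SKO132 had 0.55, 0.49 and 0.46, SKO137.1 had 0.46, 0.48 and 0.50, and DKO548 had 0.21, 0.16 and 0.25.

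Nudt13 itself was at 21.1 CPM in SKO132, 14.2 in SKO137.1 and 15.2 in DKO548, against 6.83 to 14.998 CPM in the other 12 lines. Kcnk5 was at 15.4, 17.1 and 12.4 CPM, within the 1.45 to 36.9 CPM of the other 12. Sequences before the start sites of the genes that flank this position are shown with that of Zfp503, described later for its pattern over lines. They are the 250 bases upstream of each start, from RefSeq on GRCm38.p6, an assembly whose coordinates differ from those of the table. Capitals mark the dinucleotide CG.
Kcnk5, chr14:20181783-20182032, minus strand: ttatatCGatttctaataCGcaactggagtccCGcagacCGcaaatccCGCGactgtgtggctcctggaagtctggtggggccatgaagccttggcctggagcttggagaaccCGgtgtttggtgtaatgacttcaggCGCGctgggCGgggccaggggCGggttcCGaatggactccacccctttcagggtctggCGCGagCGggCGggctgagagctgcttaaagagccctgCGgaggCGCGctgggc
Nudt13, chr14:20294440-20294689, plus strand: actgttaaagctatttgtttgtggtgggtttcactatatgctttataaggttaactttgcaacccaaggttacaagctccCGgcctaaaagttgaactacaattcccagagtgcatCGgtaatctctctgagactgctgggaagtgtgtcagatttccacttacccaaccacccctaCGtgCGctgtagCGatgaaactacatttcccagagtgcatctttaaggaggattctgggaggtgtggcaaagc
Zfp503, chr14:21989602-21989851, minus strand: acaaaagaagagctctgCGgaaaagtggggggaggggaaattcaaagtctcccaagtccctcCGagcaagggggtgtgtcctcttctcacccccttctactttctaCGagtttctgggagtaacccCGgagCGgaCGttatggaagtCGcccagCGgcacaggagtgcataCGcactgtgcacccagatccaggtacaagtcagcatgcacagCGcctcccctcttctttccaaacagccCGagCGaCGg
CG, which reads the same on both strands, occurred 19, 5 and 13 times, respectively. Among 27025 RefSeq promoter stretches of this length, 19.6% held 19 or more, 55.5% held 5 or more and 31.8% held 13 or more. No comparison over the 342 genes was made, because only 257 of them (75.1%) matched the promoter table.

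The rise was also described within groups of the same 342 genes, against the 12-line medians. These are the values on which the lines were selected, and the mean level includes the raised lines. In 4 equal groups of the genes by mean level, SKO137.1 had 0.49, 0.52, 0.56 and 0.56 from the lowest to the highest. SKO132 had 0.65, 0.57, 0.52 and 0.51. DKO548 had 0.12, 0.32, 0.32 and 0.35. A 3:2 dose gives 0.54, 0.57, 0.58 and 0.58 in these groups, so SKO132 exceeded it in the lowest group and DKO548 fell farthest below it there. The genes on the plus strand (161) and on the minus strand (181) gave 0.57 and 0.52 in SKO132, 0.54 and 0.53 in SKO137.1, and 0.31 and 0.30 in DKO548. By summed exon length, in 3 equal groups from the shortest to the longest, SKO132 had 0.46, 0.58 and 0.57, SKO137.1 had 0.56, 0.54 and 0.51, and DKO548 had 0.25, 0.35 and 0.33. The 62 chromosome 14 genes with a mean of 1 to 5 CPM, which are no members, gave 0.44, 0.24 and -0.07, against -0.09 to 0.16 in the other 12 lines and 0.34 for a 3:2 dose at their levels.

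The genes of chromosome 14 were also grouped by function into 6 lists, and their levels are given in the order SKO132, SKO137.1 and DKO548. The corresponding values over all 342 genes are 58.2%, 55.3% and 33.3% above the 12 lines and medians of 0.54, 0.54 and 0.31. Of 18 genes of chromatin, DNA repair and RNA processing, 15 lay above each of the 12 lines in SKO132, 14 in SKO137.1 and 4 in DKO548, with median differences of 0.53, 0.59 and 0.30. Supt16, which encodes a subunit of the histone chaperone FACT, was at 745 CPM in SKO132, 805 in SKO137.1 and 658 in DKO548. The other 12 lines had 358 to 572 CPM, a median of 520, and did not overlap with the 3. Top2b, the gene of DNA topoisomerase II beta, was at 688, 715 and 532 CPM, against 264 to 602, so DKO548 lay inside that range. Hnrnpc, encoding an RNA-binding protein of the spliceosome, was at 545, 557 and 476 CPM, inside the range of 436 to 647 CPM. It was 1.09-fold, 1.11-fold and 0.951-fold the 12-line median, below the median rise of the 342 genes in each of the 3 lines.

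Of 10 tumour suppressor and death regulator genes, 6, 5 and 3 exceeded the 12 lines in SKO132, SKO137.1 and DKO548, with median differences of 0.54, 0.60 and 0.23. Bap1, a nuclear deubiquitinase, was at 191.8, 211 and 153 CPM against 119 to 159 CPM. Pbrm1, a subunit of the PBAF chromatin remodelling complex, was at 430, 490 and 435 CPM against 148 to 395 CPM, with all 3 lines above the 12. Itm2b, which encodes a membrane protein, was at 633, 351 and 229 CPM against 161 to 443 CPM, with SKO132 alone above the range.

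Translation, nucleotide and energy metabolism genes numbered 16, of which 9, 10 and 7 exceeded the 12 lines, with median differences of 0.38, 0.53 and 0.36. Tkt, the transketolase of the pentose phosphate pathway, was at 1124, 1321 and 1150 CPM against 712 to 1054 CPM, above the 12 in all 3 lines. Tpt1, the most abundant of these genes and a translationally controlled protein gene, was at 1119, 1654 and 1212 CPM, inside the range of 994 to 2254 CPM. Rps24, a protein of the small ribosomal subunit, was at 667, 874 and 703 CPM, inside the range of 499 to 1576 CPM. For Rps24 the upper end was the value of DKO170.2 alone, and the next of the DKO lines had 869 CPM.

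Of 6 listed proteasome genes, 5 were members, of which 2, 2 and 1 exceeded the 12 lines. Psmc6, an ATPase of the regulatory particle, was at 330, 254 and 221 CPM against 155 to 211 CPM and exceeded them in all 3 lines. Psmd6, of the regulatory lid, was at 201, 188 and 147 CPM against 105 to 181 CPM. Psme1, a subunit of the PA28 activator, was at 152, 162 and 123 CPM against 110 to 238 CPM and stayed inside that range.

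Of 11 lymphocyte signalling genes, 4, 3 and 3 exceeded the 12 lines, with median differences of 0.52, 0.29 and 0.27. Ppp3cb, a catalytic subunit of calcineurin, was at 193, 245 and 217 CPM against 140 to 196 CPM. Camk2g, a calcium and calmodulin-dependent kinase, was at 156.8, 245 and 162 CPM against 101 to 180 CPM, with only SKO137.1 above the range. Lcp1, which encodes the leukocyte actin-bundling protein L-plastin, was at 614, 560 and 454 CPM, inside the wide range of 259 to 926 CPM.

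At the T cell receptor alpha locus, Trac, the constant region of the alpha chain (plus strand, 54840196 to 54842772 in the table), was at 112 CPM in SKO132, 18.4 in SKO137.1 and 1.04 in DKO548. The other 12 lines had 4.05 to 19.9 CPM. Thus SKO132 was 12.2-fold above their median, SKO137.1 within their range and DKO548 below it. Dad1, which lies next to Trac and encodes a subunit of oligosaccharyltransferase, was at 86.0, 83.1 and 60.2 CPM against 42.0 to 76.1 CPM. Trac and Dad1, at neighbouring positions of 1 chromosome, therefore differed widely in how far they departed from a 3:2 dose.

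**Figure D5:**
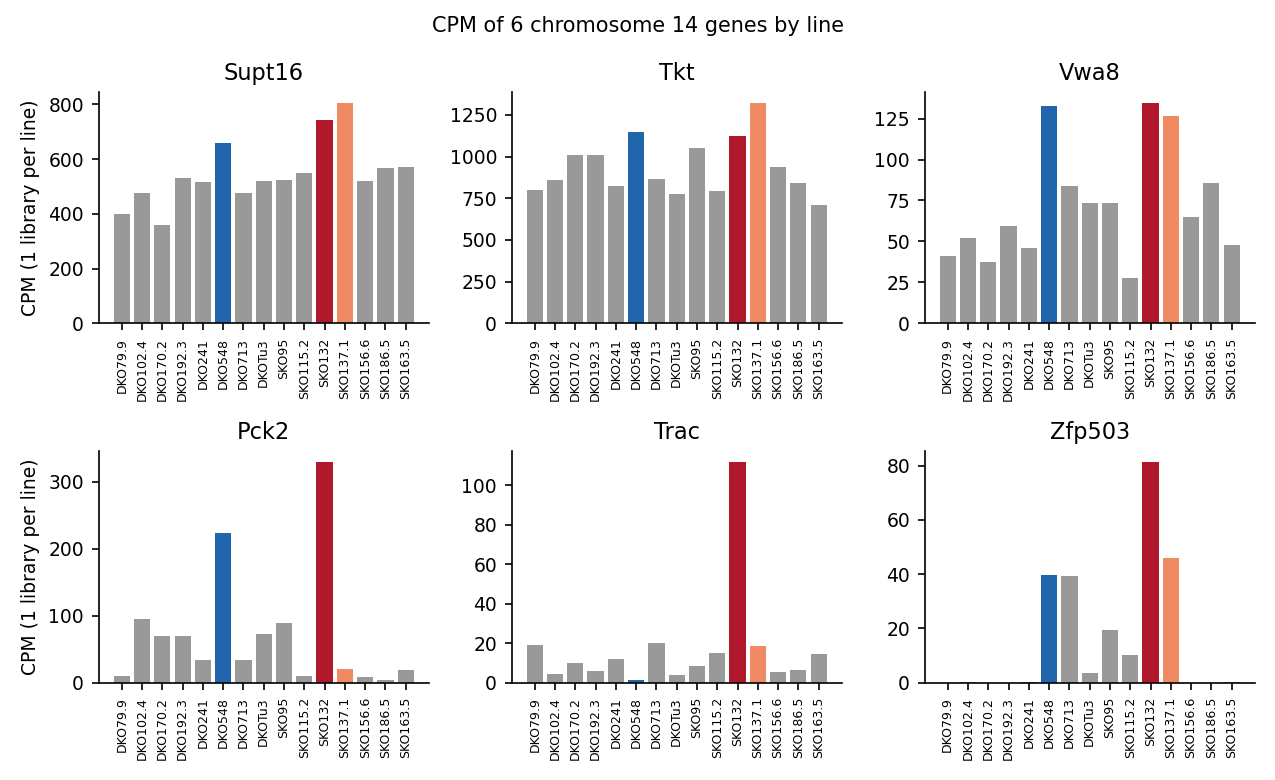
CPM of 6 chromosome 14 genes in each of 15 lines (1 library per line), with SKO132 in dark red, SKO137.1 in orange, DKO548 in blue and the other 12 in grey. Supt16, Tkt and Vwa8 are raised in all 3 lines, Pck2 in SKO132 and DKO548, and Trac in SKO132, while Zfp503 was detected well above 1 CPM in 7 lines.

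Some genes departed far from the shift of their own line, and are named by a rule on size. In SKO132 the highest were Pck2, the mitochondrial phosphoenolpyruvate carboxykinase, at 329 CPM, Tsc22d1, a regulator of transcription, at 210 CPM and Cacna1d, a subunit of a voltage-gated calcium channel, at 136 CPM. They were 9.81-fold, 4.56-fold and 4.38-fold the 12-line medians. The lowest in SKO132 were Tnfrsf19, a TNF receptor family gene, at 0.993 CPM, Dzip1, a ciliary protein gene, at 15.9 CPM and Fam208a, a subunit of the HUSH silencing complex, at 17.7 CPM. The corresponding medians of the 12 lines were 13.3, 79.5 and 61.6 CPM, and only Fam208a lay below all of them.

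In SKO137.1 the highest were Mettl6, a tRNA methyltransferase gene, at 230 CPM, Colq, which encodes the collagen tail of acetylcholinesterase, at 212 CPM and Vwa8, a mitochondrial protein gene, at 127 CPM. They were 2.49-fold, 2.47-fold and 2.28-fold the 12-line medians. Mettl6 and Colq lie next to each other on the minus strand. Vwa8 was raised alike in all 3 lines, at 135 CPM in SKO132 and 133 CPM in DKO548 against 27.6 to 85.4 CPM elsewhere. The lowest in SKO137.1 were Ptk2b, the kinase PYK2, at 3.42 CPM, ENSMUSG00000048107 at 0.311 CPM and Tnfrsf19 at 3.42 CPM. These genes ranged widely in the other 12 lines as well, Ptk2b from 0.190 to 198 CPM.

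In DKO548 the highest were ENSMUSG00000048107 at 180 CPM, Pck2 at 223 CPM and Tnfrsf19 at 70.1 CPM. ENSMUSG00000048107 was higher still in DKO713 (233 CPM) and DKOTu3 (199 CPM). The lowest were Ptk2b at 1.38 CPM, Dock9, an exchange factor for CDC42, at 6.04 CPM and Ripk3, the kinase of necroptosis, at 11.1 CPM. Of these only Dock9 lay below the other 12 lines, where the lowest values of Ptk2b and Ripk3 were 0.190 and 2.17 CPM. Pck2 was thus far above the 12-line range of 3.84 to 94.6 CPM in both SKO132 and DKO548, but at 20.5 CPM in SKO137.1. Tnfrsf19 was above the 0.412 to 54.8 CPM of the other 12 lines in DKO548 and at 0.993 CPM in SKO132. Tnfrsf19 was thus among the 3 lowest in SKO132 and SKO137.1 and among the 3 highest in DKO548.

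Zfp503, a zinc finger regulator of transcription (minus strand, 22803184 to 22808823 in the table), was chosen after its values were seen. It was at 81.2 CPM in SKO132, 45.9 in SKO137.1 and 39.5 in DKO548. DKO713, which had no shift of the chromosome, reached 39.2 CPM. SKO95 had 19.4, SKO115.2 10.2 and DKOTu3 3.47 CPM, and the remaining 8 lines had 0 to 0.265 CPM. The 3 raised lines were the highest of the 15, though DKO713 came within 1 CPM of DKO548. Lrmda, which starts next to Zfp503 on the other strand but is no member, was listed at 5.29 CPM in DKO548, 4.04 in SKO137.1, 0.717 in SKO132 and 0.518 in SKO115.2, and at 0 in the other 11 lines.

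The genotype comparison asks whether chromosome 14 genes differ between the 8 DKO and the 7 E2a-/- lines, and was not used to choose the lines. It was tested with limma on log2(CPM + 1) and Benjamini-Hochberg adjustment over all 12545 genes. With an adjusted p under 0.01, 1 of the 342 genes was called (0.292%, against 0.0478% of all genes), and it was higher in DKO lines. This gene, ENSMUSG00000048107 (chromosome 14, 103377437 to 103381745, minus strand, no symbol in the annotation used), was at 17.9, 27.5, 39.8, 46.3, 55.0, 180, 199 and 233 CPM in the DKO lines. In the E2a-/- lines it was at 0, 0, 0.0474, 0.311, 0.860, 1.09 and 10.3 CPM, the last in SKO132, so the groups did not overlap. Its log2 fold change was 5.26 with an SE of 0.64 and an adjusted p of 0.00205 (limma). Over 26 alternatives its adjusted p ran from 5.34e-05 to 0.0936, the highest with edgeR's quasi-likelihood test, which did not call it.

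At an unadjusted p under 0.05, 6 genes (1.754%, against 4.33% of all genes) were higher and 41 (11.99%, against 5.83%) were lower in DKO lines. The median log2 fold change of the 342 genes was -0.16, against -0.02 over all genes, and 265 of them were lower in DKO lines. Of the lines with a raised chromosome 14, 2 are labelled E2a-/-, of which SKO132 went against its label in Lef1, and 1 is labelled DKO. Without these 3 lines the counts were 17 higher and 25 lower, and the median was -0.04. The same fit gave 690 higher and 751 lower over all genes. Without SKO132 and SKO137.1 the counts were 19 and 19, beside 641 and 804 over all genes. With the chromosome shift subtracted from each line they were 16 and 21, beside 553 and 710. Leaving out lines selected on these genes, or subtracting their shift, moves the counts in this direction by construction, so nothing is read from it.

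Among the smallest unadjusted p values, the genes higher in DKO lines were ENSMUSG00000048107, Ajuba, Gjb2, Rap2a and Vcl. The last 4 had limma adjusted p values of 0.0832, 0.222, 0.350 and 0.393 and so did not pass the test. Ajuba, a LIM domain scaffold gene, ranged from 11.7 to 20.1 CPM among DKO lines and from 1.35 to 16.8 CPM among E2a-/- lines, with SKO132 the highest of the latter. Without SKO132 its limma adjusted p was 0.00223. Over 26 alternatives the adjusted p of Ajuba ran from 0.000607 (limma) to 0.179 (edgeR). It was under 0.01 in 3 of them, all without SKO132. Lower in DKO lines were Pdlim2, Camk2g, Ccar2, Dlgap5 and Top2b. Pdlim2, which encodes a PDZ and LIM domain protein that limits STAT and NF-kappaB signalling, ranged from 0.290 to 3.45 CPM among DKO lines and from 4.69 to 27.2 CPM among E2a-/- lines, without overlap. Its log2 fold change was -2.28 with an SE of 0.39 and a limma adjusted p of 0.0246, which ran from 7.65e-06 to 0.0681 over the alternatives. Camk2g, Ccar2, Dlgap5 and Top2b, all higher in SKO137.1 than in any DKO line, had adjusted p values of 0.129 to 0.162 (limma).

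Of the 62 members on the 6 gene lists, limma called 0 between the genotypes. At an unadjusted p under 0.05 there were 11, of which 1 was higher (Vcl, the vinculin gene) and 10 were lower in DKO lines, beside 6 and 41 of all 342 genes (1.754% and 11.99%) and 4.33% and 5.83% of all genes. Without SKO132 and SKO137.1 the 342 genes gave 19 and 19, beside 641 and 804 over all genes. These 2 lines were selected on these genes, so the change follows by construction and nothing is read from it. The quasi-likelihood test of edgeR called 0 of the 62 and DESeq2 called 1, which was Pdlim2.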

How the data were processed

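RNA of 15 lines (8 DKO, 7 E2a-/-) was sequenced, with 1 library per line. Per the submitters' processing notes, the authors used Trimmomatic (version 0.33), TopHat2 (version 2.1.0), HTSeq (version 0.6.1) and edgeR, and mm10. The authors deposited CPM values with the position of each gene. Of 342 members, 337 have an entry in GRCm38 (mm10) and 0 of these start within 1 bp of it. The listed positions thus differ from those of the mm10 that the notes name. Which assembly they follow is not known here, and they were used as listed. All values in each line were whole multiples of its smallest value (within 0.05 of a read), and the recovered reads served the count tests only. With 3 reads as the floor, depth limits a value to 0.138 CPM in the deepest and 0.618 CPM in the shallowest line.

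Bins of 10 Mb with at least 5 genes were used, without a test. Genotypes, taken from the labels, were compared with limma (version 3.58.1, R version 4.3.3) on log2(CPM + 1) with a variance trend, 2-sided. On recovered reads, edgeR (version 4.0.16) and DESeq2 (version 1.42.0) were alternatives. Other steps used Python (version 3.11.15). The labels name no batch, and nothing in them ties lines to litters. Genes named are the 3 highest by mean CPM of each list, the 3 highest and 3 lowest per raised line among genes averaging at least 20 CPM, the first and last along the chromosome, those at the threshold and beside a step, and up to 5 per direction by genotype p. Not every gene that this rule names is reported here. The members, lines and lists were chosen with earlier results of these data known. The scripts were tested on simulated data. The 250-base promoter stretches are from RefSeq.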

Additional observations from a re-analysis of the deposited data

Results flagged for a closer look

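Lines that lay far from the rest of their genotype group were sought in 116 sets of values (the shift, the bins and the named genes, in 8 DKO or 7 E2a-/- lines) by the gap to the nearest line over the whole range. Of these, 23 gaps exceeded Dixon's limit. Chance flags about 1 in 20 independent sets, but these sets are not independent, and they hold the values on which SKO132, SKO137.1 and DKO548 were selected and genes named for being extreme in them, so the number is not compared with chance. For the chromosome itself, the flagged values of DKO548 were the shift (0.21) and the bins from 30 Mb (0.26), 60 Mb (0.27) and 120 Mb (0.37). DKO548 was selected on these values, so nothing is read from its flags. DKO170.2 was flagged in the first bin (0.28). The larger shifts of SKO132 (0.50) and SKO137.1 (0.48) lie next to each other in 1 group. The gap to the nearest line therefore could not flag either of them.

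Among genes, SKO132 stood apart in 8, with 112 CPM of Trac, 633 of Itm2b, 329 of Pck2, 210 of Tsc22d1, 136 of Cacna1d, 10.3 of ENSMUSG00000048107, 16.8 of Ajuba and 192.4 of Vcl. SKO137.1 stood apart with 245.1 CPM of Ppp3cb, 244.8 of Camk2g and 4.04 of Lrmda, and DKO548 with 223 of Pck2 and 5.29 of Lrmda. Of the lines without a shift, DKO79.9 had 443 CPM of Itm2b (161 to 288 in the other DKO lines) and 926 of Lcp1 (259 to 465), DKO170.2 had 1576 of Rps24 (499 to 869), and SKO95 had 52.7 of Rap2a and 6.73 of ENSMUSG00000085092.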

How the results depend on the processing

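The shifts of SKO132, SKO137.1 and DKO548 stayed above 0 in the 12 alternatives of each. They moved by more than the SD of the other 12 lines without a minimum level (0.47, 0.46 and 0.17) and against the 12-line medians (0.54, 0.54 and 0.31). With the mean over all lines as reference, SKO132 moved to 0.45 and SKO137.1 to 0.44. With median-of-ratios scaling, SKO132 moved to 0.44 and DKO548 to 0.23. In bins of 20 Mb, SKO132 and SKO137.1 exceeded the 12 lines in 7 of 7 bins each, and DKO548 in 6. With a minimum mean of 1 CPM, SKO132, SKO137.1 and DKO548 exceeded the 12 lines in 11, 9 and 8 of 11 bins, and with 20 CPM in 10, 9 and 8 of 10. In bins of 5 Mb the counts were 16, 15 and 13 of 16. Positions from GRCm38, chosen after seeing the data, gave 11, 10 and 9 of 11.

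Between the genotypes, with 1 gene called by limma, edgeR's quasi-likelihood test called 0 (40 at an unadjusted p under 0.05), DESeq2 called 5, and limma at an adjusted p under 0.05 called 2. Leaving out 1 line gave 1 to 2 calls and 31 to 60 genes at an unadjusted p under 0.05, the fewest without SKO137.1 (31, of which 22 were lower in DKO lines). The second call, without SKO132, was Ajuba. Without SKO132, SKO137.1 and DKO548, and without SKO132 and SKO137.1 (added after seeing the data), 2 were called, ENSMUSG00000048107 and Ajuba. Over all genes limma called 6, edgeR 1 and DESeq2 177, and limma 17 without SKO132. Limma called 19 of all genes at an adjusted p under 0.05, and edgeR gave 1359 at an unadjusted p under 0.05. Leaving out 1 line gave 3 to 17 calls over all genes. It gave 1054 to 1531 of all genes at an unadjusted p under 0.05, with 1169 without SKO137.1. Without SKO132, SKO137.1 and DKO548 limma called 13 of all genes, and without SKO132 and SKO137.1 it called 12. With SKO156.6 and SKO186.5 averaged, 1 member was called. The direction of each of the 10 genes named for the genotype held under its 26 alternatives. No paired analysis was possible because the groups share no line numbers. The range of the other 12 lines limits what a bin of 6 to 13 genes can show, and 2 bins could not be read.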
